A study of Saccharomyces cerevisiae with 12 samples.

Results

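The flocculins are the cell-surface adhesins of budding yeast, and 6 genes were chosen by their systematic names: FLO1 (YAR050W), FLO5 (YHR211W), FLO9 (YAL063C), FLO10 (YKR102W), FLO11 (YIR019C) and FLO8 (YER109C), the last of which encodes a transcriptional activator of the family. The count tables held rows for 5 of these 6 among 7127 features, and all 5 passed the filter on low counts. FLO8, which the RefSeq annotation used below lists as a pseudogene, was not analysed here.

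Flocculins are large glycoproteins anchored in the cell wall. Flo1, Flo5, Flo9 and Flo10 bind sugar chains on neighbouring cells and so clump cells into flocs. Flo11, also called Muc1, lets cells stick to surfaces and is needed for invasive and filamentous growth. In laboratory strains related to the S288C reference these genes are known to be largely silent. They are known to be repressed by Tup1-Cyc8 and by chromatin-based silencing near chromosome ends, and activated through the SWI/SNF nucleosome remodeller, the cAMP pathway and the filamentation MAP kinase pathway.

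RNA with poly(A) tails was measured in 2 strains, each grown in galactose medium (YPGal) and in glucose medium (YPD), with 3 biological replicates in each of the 4 groups. WT is labelled YEF4734A in 1 label field and YEF473A in the protocol text. H3i, labelled DGS200.1, was built from YEF473A by deletion of HHT1, a gene for histone H3, and its other H3 gene, HHT2, is read from the GAL1 promoter, which galactose activates and glucose represses. The switch from YPGal to YPD is the treatment, given to both strains, and for H3i it is meant to stop synthesis of H3. H3i is a single strain, its protein was not measured, and the sources used here do not give how long cells spent in glucose.

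Levels are given in CPM, the counts of a gene scaled to a library total of 1e6 counts assigned to genes. The fitted fold changes rest on a further scaling between libraries, so ratios of CPM can differ from them. The 4 libraries of replicate 1 had gene totals of 2176277 to 2525223, those of replicate 2 40950610 to 52278567 and those of replicate 3 8649749 to 11628815. HHT1 was at 634 to 1330 CPM in the 6 WT libraries and at 0 to 3.34 CPM in the 6 H3i libraries. HHT2 in H3i was at 3690, 4350 and 2280 CPM in YPGal and at 14.7, 21.5 and 30.3 CPM in YPD. Replicate 2 was the deepest but stood apart: of the genes at 50 CPM or more in replicates 1 and 3, 22.0% (H3i YPD) to 47.3% (H3i YPGal) were under 0.1 of that level there. Both WT libraries of replicate 3 also went against their label. HIS3 was at 22.7 and 21.9 CPM and TRP1 at 95.0 and 84.1 CPM in them, and both were at 0 in the other 10 libraries. The strain markers LEU2, URA3 and LYS2 went the opposite way, at 0 in them and above 0 in the other 10. The summed level of 5 genes specific to mating type a was 54.7 and 57.2 CPM in them against 335 to 2540 CPM in the other WT libraries. The summed level of 4 alpha-specific genes was 3190 and 4080 CPM in them against 10.7 to 77.2 CPM. Because of the losses in replicate 2, tests were run on replicates 1 and 3 (8 libraries, 6354 genes). Each result is given beside the fit of all 12 libraries (6408 genes). The WT libraries of replicate 3 remain in both fits and are left out only where stated.

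Per the RefSeq annotation of the R64 assembly, which is the sacCer3 build named in the submitters' notes, all 5 genes have a single uninterrupted coding exon within 50 kb of a chromosome end. FLO1 lies at chrI:203403-208016 on the plus strand, 22.2 kb from the right end. FLO9 lies at the opposite end of the same chromosome, at chrI:24000-27968 on the minus strand, 24.0 kb from the left end. FLO5 lies at chrVIII:525392-528619 on the plus strand, 34.0 kb from the right end. FLO10 lies at chrXI:646356-649865 on the plus strand, 17.0 kb from the right end. FLO11 lies at chrIX:389572-393675 on the minus strand, 46.2 kb from the right end and so the farthest inland of the 5.

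FLO1, FLO5 and FLO9 are near copies of each other, which bears on how reads could be assigned to them. Over aligned coding sequence FLO1 and FLO9 were 95.5% identical, FLO1 and FLO5 90.9% and FLO5 and FLO9 89.9%, whereas the other pairs of members were 72.3% to 74.8% identical. The stretches below, coding bases 601 to 720 of each, are shown because they are among the parts in which the copies can be told apart, and capitals mark the 31 positions at which the 3 genes are not all alike. They were read from the RefSeq R64 genome at chrI:204003-204122 (plus strand), chrVIII:525992-526111 (plus strand) and chrI:27249-27368 (minus strand).
FLO1: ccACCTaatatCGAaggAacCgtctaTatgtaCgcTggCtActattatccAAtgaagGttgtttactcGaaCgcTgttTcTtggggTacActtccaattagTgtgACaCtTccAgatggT
FLO5: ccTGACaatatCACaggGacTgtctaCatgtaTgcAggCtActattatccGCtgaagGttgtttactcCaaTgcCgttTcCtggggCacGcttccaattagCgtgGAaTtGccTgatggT
FLO9: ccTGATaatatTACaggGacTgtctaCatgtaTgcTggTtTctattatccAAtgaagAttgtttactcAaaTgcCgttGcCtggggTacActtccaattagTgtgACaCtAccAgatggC

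In other parts of the genes a short read can match more than 1 place. Each gene carries tandem repeats that code for its serine- and threonine-rich stalk, so a read can match several places within its own gene. The repeat period with the most near-identical copies was 135 bases in FLO1, FLO5 and FLO9, 189 bases in FLO10 and 207 bases in FLO11. A pair of neighbouring FLO1 units shows how close the copies are. They lie at chrI:204504-204638 and chrI:204639-204773 on the plus strand, and capitals mark the 3 bases at which they differ.
FLO1 unit 1: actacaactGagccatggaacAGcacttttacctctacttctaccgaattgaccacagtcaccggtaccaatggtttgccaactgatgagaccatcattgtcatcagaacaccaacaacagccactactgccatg
FLO1 unit 2: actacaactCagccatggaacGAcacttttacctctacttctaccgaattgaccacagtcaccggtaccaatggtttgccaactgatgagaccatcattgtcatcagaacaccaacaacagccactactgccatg

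Of all 50-base windows within a gene, the share found once in the genome was 46.2% for FLO1, 61.4% for FLO5 and 36.6% for FLO9, against 87.2% for FLO10 and 72.0% for FLO11. FLO1 shared 40.9% of its windows with FLO9, whereas FLO10 and FLO11 shared 0% of theirs with any other member. Neither the read length nor the treatment of reads with several matches is stated in the labels or notes. Reads entered in the tables as aligned to more than 1 place were 23.5%, 18.5% and 21.5% of all entries in H3i YPD, above every other library of the same replicate number, where they were at most 14.9%, 8.2% and 14.1%. Their part in the levels of FLO1, FLO5 and FLO9 was not tested. Values of these 3 genes are also given for their sum, which does not include the entry for reads aligned to more than 1 place.

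The 5 flocculin genes were low in WT in both media and in H3i in galactose, and all 5 rose in H3i in glucose. The summed level of the 5 was 147, 187 and 163 CPM in WT YPGal, 92.1, 74.4 and 120 CPM in WT YPD, and 138, 133 and 176 CPM in H3i YPGal, in replicates 1, 2 and 3. In H3i YPD the sum was 1150, 1420 and 1510 CPM. The lowest H3i YPD sum was thus above the highest sum of the other 9 libraries, including in replicate 2. Because the samples are bulk cultures, more cells reading a gene and more RNA in each cell cannot be told apart.

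**Figure D1:**
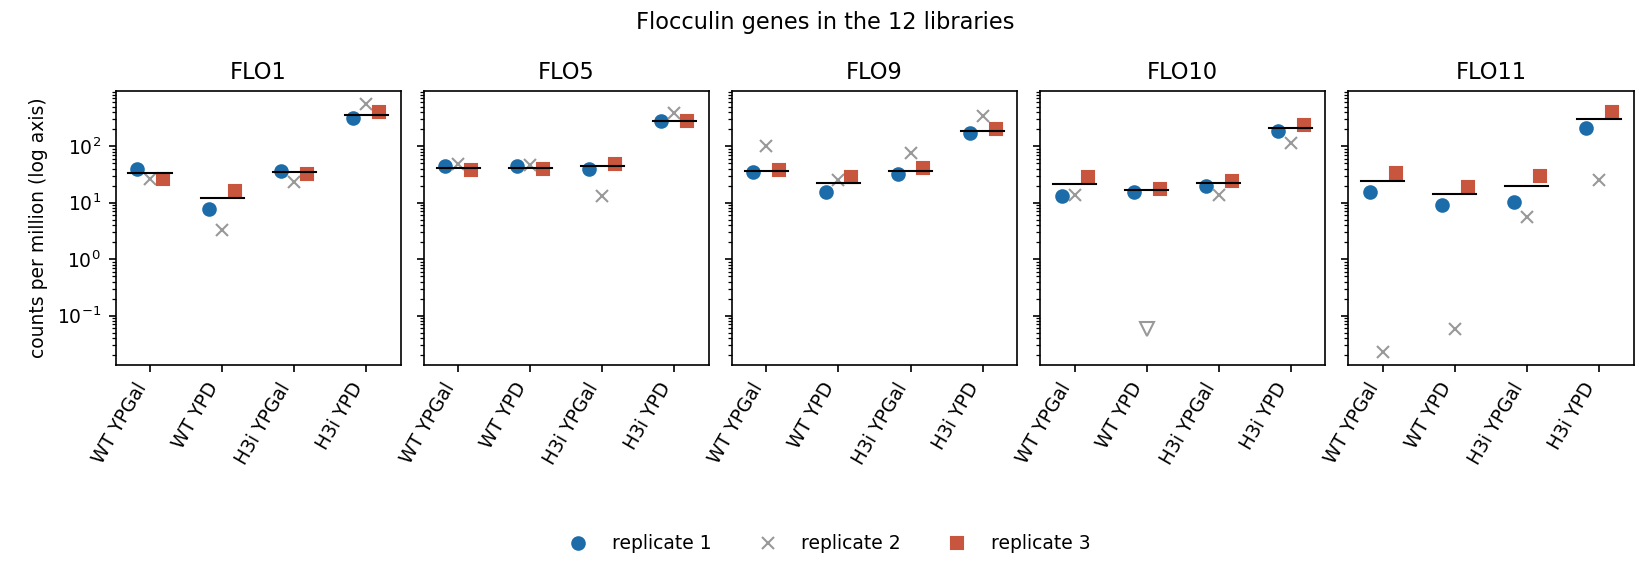
Level of each flocculin gene in CPM (log axis) in each of the 12 libraries, by strain and medium; points are single libraries by replicate number and bars are the mean of replicates 1 and 3. An open triangle marks a library with 0 counts, drawn at the level of 3 counts. H3i YPD lies highest for every gene in replicates 1 and 3, and the replicate 2 value of FLO11 in H3i YPD, 25.3 CPM, lies among the other groups.

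FLO1, the dominant flocculation gene and the longest of the 5, was at 40.0, 26.0 and 26.1 CPM in WT YPGal and at 7.78, 3.29 and 16.3 CPM in WT YPD in replicates 1, 2 and 3. In H3i it was at 35.9, 23.4 and 32.6 CPM in YPGal and at 312, 563 and 396 CPM in YPD. Every H3i YPD library was above all 9 others, and every WT YPD library was below the remaining groups. In H3i FLO1 rose in YPD against YPGal by a log2 fold change of 2.98 ± 0.35 (SE, adjusted p = 0.00185, edgeR's quasi-likelihood test with Benjamini-Hochberg adjustment, as for all adjusted p-values below unless another tool is named).

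FLO5 had the most even level outside H3i YPD in replicates 1 and 3. Its level was 43.6, 48.6 and 37.6 CPM in WT YPGal, 44.5, 45.7 and 38.6 CPM in WT YPD, 39.7, 13.1 and 49.0 CPM in H3i YPGal, and 273, 383 and 275 CPM in H3i YPD. H3i YPD did not overlap any other group, and the single low value elsewhere was replicate 2 of H3i YPGal. FLO5 rose in H3i in YPD by 2.23 ± 0.23 on the log2 scale (SE, adjusted p = 0.00153).

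FLO9, the near copy of FLO1 on the other arm of chromosome I, was at 35.2, 99.2 and 37.5 CPM in WT YPGal, 15.1, 25.4 and 28.8 CPM in WT YPD, 32.1, 76.7 and 40.7 CPM in H3i YPGal, and 167, 337 and 199 CPM in H3i YPD. Replicate 2 gave the highest YPGal value in both strains, and H3i YPD again lay above all other libraries. FLO9 rose by 1.94 ± 0.26 on the log2 scale in H3i in YPD against YPGal (SE, adjusted p = 0.00226), the smallest of the 5 estimates. Summed over FLO1, FLO5 and FLO9, so that the assignment of reads among the copies does not matter, the log2 fold change was 2.42 ± 0.23 (SE, adjusted p = 0.00151).

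FLO10, a flocculin whose product also supports filamentous growth when it is overproduced, was at 13.1, 13.5 and 28.9 CPM in WT YPGal and at 15.6, 0 and 17.4 CPM in WT YPD. The 0 was 0 of 52278567 counts, which allows a level of up to 0.0574 CPM as far as counting error goes, and it fell in the replicate in which many other genes were also lost. In H3i FLO10 was at 20.0, 13.9 and 24.5 CPM in YPGal and at 186, 115 and 239 CPM in YPD, so that H3i YPD was separate from the rest. It rose in H3i in YPD by 2.86 ± 0.34 on the log2 scale (SE, adjusted p = 0.00185).

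FLO11 had the largest estimate of the 5 in this comparison and the largest spread between libraries. Its level was 15.4, 0.0224 and 32.7 CPM in WT YPGal, 9.08, 0.0574 and 18.8 CPM in WT YPD, 10.4, 5.49 and 29.1 CPM in H3i YPGal, and 209, 25.3 and 402 CPM in H3i YPD. Replicate 2 was the lowest library of each group, with 1 count in WT YPGal and 3 in WT YPD. In replicates 1 and 3 H3i YPD did not overlap the others, but the replicate 2 value of 25.3 CPM lay below the 32.7 CPM of WT YPGal replicate 3. FLO11 rose by 3.62 ± 0.25 on the log2 scale (SE, adjusted p = 0.000672), and the ratio of YPD to YPGal in CPM was 20.1, 4.61 and 13.8 in replicates 1, 2 and 3.

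All 5 of 5 flocculin genes were therefore called higher in H3i YPD against H3i YPGal, where 21.4% of the 6354 genes tested were called higher. Their median log2 fold change was 2.86 against 0.03 for all genes tested. Many genes changed in this comparison, so the members were also set beside genes like them in level or position. Of the 729 genes whose mean H3i YPGal level lay between those of the lowest and highest member, 34.3% were called higher, with a median of 0.64. Of the 423 genes at the members' distances from a chromosome end, 31.7% were called higher, with a median of 0.30. The 5 members ranked at the 93.9th (FLO1), 90.5th (FLO5), 88.8th (FLO9), 93.5th (FLO10) and 95.9th (FLO11) percentile of all fold changes. Complete separation of H3i YPD from the other groups in replicates 1 and 3 held for 5 of 5 members and for 38.6% of all genes, and over all 12 libraries for 4 of 5 members and 15.3% of genes.

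These calls rest on replicates 1 and 3, and all 5 stood whichever of the 8 libraries was left out, with adjusted p-values of at most 0.026. In the fit of all 12 libraries the log2 fold changes in H3i were of similar size, at 3.54 ± 0.90 for FLO1, 2.95 ± 0.87 for FLO5, 1.85 ± 0.98 for FLO9, 2.77 ± 1.6 for FLO10 and 3.30 ± 1.81 for FLO11 (SE), but their adjusted p-values were 0.176 to 0.645 and none of the 5 was called, with 0 of 6408 genes called higher. With each replicate number fitted as a block over all 12 libraries, FLO1 (adjusted p = 0.0212), FLO5 (0.0254) and FLO9 (0.0408) were called, and FLO10 (0.343) and FLO11 (0.362) were not.

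Glucose against galactose in WT gives the response to the medium without the H3 switch. None of the 5 flocculin genes was called by edgeR in WT, where 0.771% of genes were called in either direction and 1268 genes had an unadjusted p under 0.05. The log2 fold changes were −1.23 ± 0.36 for FLO1 (adjusted p = 0.163), 0.20 ± 0.23 for FLO5, −0.59 ± 0.27 for FLO9, −0.18 ± 0.34 for FLO10 and −0.64 ± 0.25 for FLO11 (SE), with adjusted p-values of 0.219 to 0.808 for the last 4. FLO1 was the member nearest to a call. Its ratio of YPD to YPGal in CPM was 0.195, 0.127 and 0.625 in replicates 1, 2 and 3, the replicate 3 libraries being those that differ from the other WT libraries in marker genes. Without both of these libraries the FLO1 value was −2.12 ± 0.42 (SE, adjusted p = 0.0165), and DESeq2 also called it at −1.19 (adjusted p = 0.0475). In the 12-library fit 0 members and 0.0624% of genes were called.

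H3i and WT were also compared in galactose, where HHT2 is read from the GAL1 promoter. The flocculin genes differed little: the log2 fold changes, H3i over WT, were 0.02 ± 0.34 for FLO1, 0.10 ± 0.23 for FLO5, −0.05 ± 0.26 for FLO9, 0.05 ± 0.33 for FLO10 and −0.38 ± 0.24 for FLO11 (SE, adjusted p = 1 for each). By edgeR 0 of 6354 genes were called in this comparison, so 0% is the background for the 0 members called. By the same test 114 genes had an unadjusted p under 0.05, and DESeq2 called 12 genes, no member among them. HHT1, which H3i lacks, was not called by edgeR either. Its level in replicates 1 and 3 was 881 and 689 CPM in WT and 3.34 and 0.0997 CPM in H3i. The absence of calls thus does not show that the strains are alike in galactose. WT YPGal replicate 3 is also 1 of the libraries that went against their label. In replicate 2 FLO5 was lower in H3i than in WT, at 13.1 against 48.6 CPM, and FLO11 was higher, at 5.49 against 0.0224 CPM.

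In glucose the strains stood far apart. All 5 members were higher in H3i YPD than in WT YPD, where 26.0% of genes were called higher, and the median of the members was 3.09 against 0.10 for all genes. Of the genes in the members' range of level 43.6% were called higher, and of those in their range of distance 37.8%. FLO1 differed by 4.23 ± 0.38 on the log2 scale (SE, adjusted p = 0.000818), and by 3.84 to 4.91 with single libraries left out. The CPM of FLO1 in H3i was 40.1, 171 and 24.3 times that in WT in replicates 1, 2 and 3. The fitted value, after a further scaling between libraries, corresponds to 18.7 times. The value of FLO11 was 3.88 ± 0.26 (adjusted p = 0.000608), or 3.74 to 3.97 with single libraries left out, and without WT YPD replicate 1 it was above that of FLO1. FLO10 differed by 3.09 ± 0.35 (adjusted p = 0.000835), FLO9 by 2.47 ± 0.27 (adjusted p = 0.000818) and FLO5 by 2.12 ± 0.23 (adjusted p = 0.000818). The comparison shares its H3i YPD libraries with the one above and adds no separate evidence on them. Over all 12 libraries the adjusted p-values were 0.0729 for FLO1 and 0.215 to 0.398 for the others, with 0 members and 0.0312% of genes called higher.

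**Figure D2:**
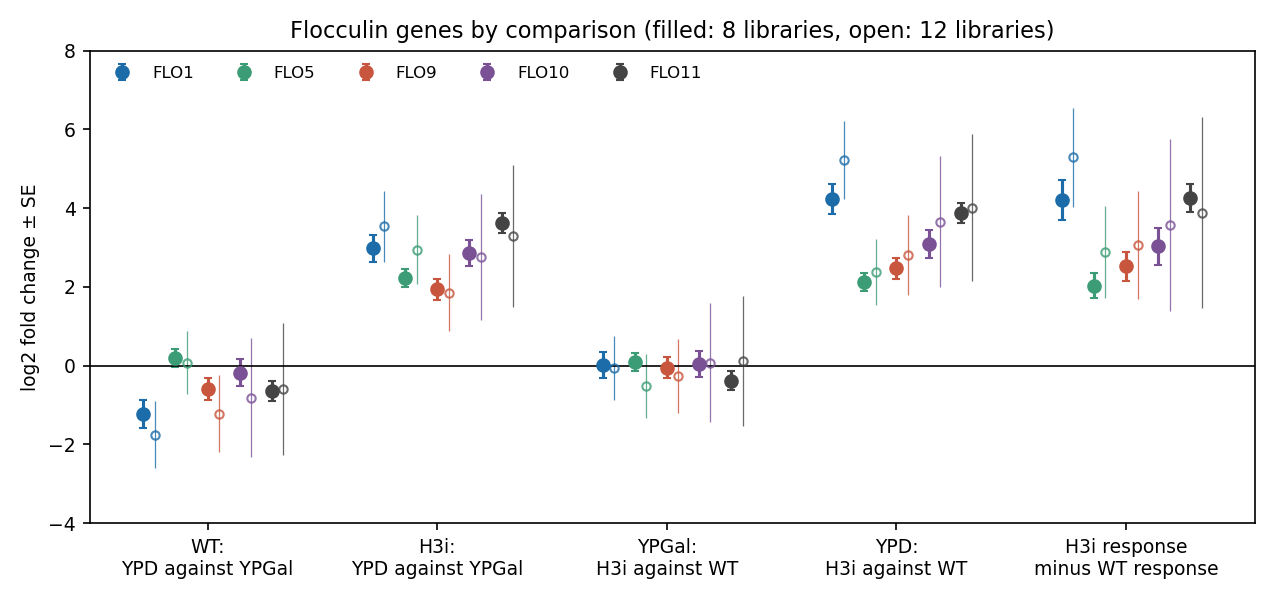
Log2 fold change of each flocculin gene with its standard error in the 5 comparisons, fitted to replicates 1 and 3 and to all 12 libraries. The estimates of both fits lie above 0 for all 5 genes in the 3 comparisons that involve H3i YPD, and the error bars of the 12-library fit are the longer ones, such as ± 1.81 against ± 0.25 for FLO11 in H3i.

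The difference between the strains in their response to glucose was tested directly as an interaction term, the response of H3i minus that of WT. It was positive and called for all 5 members, where 13.1% of genes were called higher, 24.4% of those in the members' range of level and 23.4% of those in their range of distance. The log2 values were 4.26 ± 0.35 for FLO11 (adjusted p = 0.00544), 4.21 ± 0.50 for FLO1 (0.00643), 3.04 ± 0.47 for FLO10 (0.00808), 2.52 ± 0.37 for FLO9 (0.00782) and 2.03 ± 0.32 for FLO5 (0.00845). For the sum of FLO1, FLO5 and FLO9 it was 2.80 ± 0.32 (adjusted p = 0.00619). Without both WT libraries of replicate 3 the 5 members remained called, at 1.98 (FLO5) to 5.12 (FLO1). Without the replicate block FLO1 alone was called (adjusted p = 0.0439), the other 4 having adjusted p-values of 0.0557 to 0.0633, and in the 12-library fit none was (0.399 to 0.915).

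In glucose the make-up of the flocculin RNA differed between the strains. Of the summed counts of the 5 genes FLO1 took 8.45%, 4.42% and 13.6% in WT YPD and 27.2%, 39.6% and 26.2% in H3i YPD, in replicates 1, 2 and 3. FLO5 took 48.4%, 61.4% and 32.2% in WT YPD and 23.8%, 26.9% and 18.2% in H3i YPD. The FLO1 share was thus higher, and the FLO5 share lower, in each H3i YPD library than in the WT YPD library of its number. In YPGal the FLO1 share was 27.2%, 13.9% and 16.1% in WT and 26.0%, 17.6% and 18.5% in H3i, so that in replicate 1 of H3i it was alike in both media. The FLO5 share in YPGal was 29.6%, 25.9% and 23.1% in WT and 28.7%, 9.9% and 27.9% in H3i, and in H3i it was lower in YPD than in YPGal in replicates 1 and 3 and higher in replicate 2. These shares have no test of their own.

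Per kilobase of gene, the scale on which levels of different genes can be set side by side, FLO5 was the highest member in 8 of 12 libraries. In WT YPGal the means of replicates 1 and 3 were 12.6 ± 1.34 CPM per kb for FLO5, 9.16 ± 0.396 for FLO9, 7.17 ± 2.13 for FLO1, 5.98 ± 3.19 for FLO10 and 5.87 ± 2.98 for FLO11 (SD, n = 2). FLO5 lay above FLO9 and FLO9 above FLO1 in both libraries, while FLO1, FLO10 and FLO11 did not differ from the next in this order beyond their spread. In H3i YPD the order was FLO5 at 85 ± 0.424 CPM per kb, FLO1 at 76.8 ± 12.9, FLO11 at 74.5 ± 33.3, FLO10 at 60.5 ± 10.7 and FLO9 at 46.1 ± 5.66 (SD, n = 2). There the first 4 did not differ from their neighbours in the order beyond their spread, and FLO9 lay below FLO10 in both libraries. These levels divide by the whole gene, although the share of a gene that short reads can be placed on is smallest for FLO9.

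The mating adhesins are another set of cell-surface proteins, made by haploid cells for mating. AGA1, the anchor subunit of the a-agglutinin, and FIG2, an adhesin made during mating, were called higher in H3i YPD against YPGal, at 2.69 ± 0.51 (SE, adjusted p = 0.00532) and 2.69 ± 0.32 (adjusted p = 0.00185). AGA2 and SAG1, the other subunit and its alpha-cell partner, were not called. The AGA1 call was lost without H3i YPGal replicate 3 (adjusted p = 0.054), and the FIG2 call stood whichever library was left out. FIG2 was also higher in H3i than in WT in YPD, at 2.41 ± 0.31 (adjusted p = 0.00104). Beside these, the summed level of the 4 alpha-specific genes, SAG1 among them, in H3i was 75.5, 15.0 and 82.1 CPM in YPGal and 601, 118 and 546 CPM in YPD, while the 5 a-specific genes stayed between 1250 and 1700 CPM in H3i. The part of mating-type expression in the flocculin result was not tested. Of 4 short flocculin-like fragments near chromosome ends 3 had rows, and YAL065C, the 1 with enough counts, was higher in H3i YPD than YPGal at 2.77 ± 0.65 (adjusted p = 0.0115).

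The known regulators of the flocculin genes did not move in 1 direction. Of 53 regulators tested 9 were called higher (17%) and 14 lower (26.4%) in H3i YPD against YPGal, beside 21.4% and 22.2% of all genes, with a median of −0.14. In WT, and between the strains in galactose, 0 of 53 were called. Over all 12 libraries 0 of 53 were called in any of the 5 comparisons.

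Among 7 activators 2 rose and 1 fell in H3i in YPD. MSS11, which activates FLO1 and FLO11 together with Flo8, rose by 1.27 ± 0.31 on the log2 scale (SE, adjusted p = 0.0137). MGA1, a factor similar to heat shock factors that promotes filamentous growth, had a value of 3.23 ± 0.99 (adjusted p = 0.0314), and ASH1, a repressor of HO that also supports FLO11, one of −1.13 ± 0.33 (adjusted p = 0.0258). Among 9 repressors SFL1, which represses FLO11 and FLO1, fell by 1.06 ± 0.28 on the log2 scale (adjusted p = 0.0185), and DIG2, an inhibitor of Ste12, rose by 1.33 ± 0.32 (adjusted p = 0.0133). TUP1 and CYC8, the general repressors of the family, were not called. Each of these 5 calls was lost when at least 1 of the H3i libraries was left out, with adjusted p-values of up to 0.19.

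The subunits of SWI/SNF, the remodeller that flocculin transcription depends on, were split, with 4 of 11 higher (36.4%) and 3 lower (27.3%), beside 21.4% and 22.2% of all genes. SNF5 rose by 1.61 ± 0.25 (adjusted p = 0.00292), while SNF11 fell by 1.67 ± 0.26 (adjusted p = 0.00288) and ARP9 fell by 1.20 ± 0.22 (adjusted p = 0.00482), all on the log2 scale. SNF6 had a value of −1.0 ± 0.27 (adjusted p = 0.0213), a call that was lost without any of 3 of the H3i libraries. SNF5, SNF11 and ARP9 remained called whichever library was left out.

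In the RAS and cAMP pathway 1 of 11 genes rose (9.09%) and 5 fell (45.5%) in H3i in YPD, beside 21.4% and 22.2% of all genes. CYR1, the adenylate cyclase that makes cAMP, rose by 1.52 ± 0.20 (adjusted p = 0.00214), and the call held in each leave-out. RAS1 and RAS2, the GTPases that activate it, were at −1.78 ± 0.39 (adjusted p = 0.00931) and −1.19 ± 0.30 (0.0144), and BCY1, the inhibitory subunit of protein kinase A, at −0.89 ± 0.23 (0.0177). The RAS1, RAS2 and BCY1 calls were lost when single H3i libraries were left out, with adjusted p-values of up to 0.161. In the filamentation MAP kinase pathway STE11, the kinase of the first tier, rose by 1.72 ± 0.24 (adjusted p = 0.00228) and held throughout. The cell-surface sensor MSB2 was at −1.35 ± 0.32 (0.0122) and the GTPase CDC42 at −1.11 ± 0.23 (0.00764), and both calls were lost without H3i YPGal replicate 1, that of MSB2 also without H3i YPD replicate 1. Of 6 genes of the Snf1 kinase, which relieves glucose repression, SNF1 (−0.77 ± 0.20, adjusted p = 0.0172) and SNF4 (−0.93 ± 0.19, 0.00782) were called lower, and both calls were likewise lost without that library, that of SNF1 without any of the 4 H3i libraries.

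**Figure D3:**
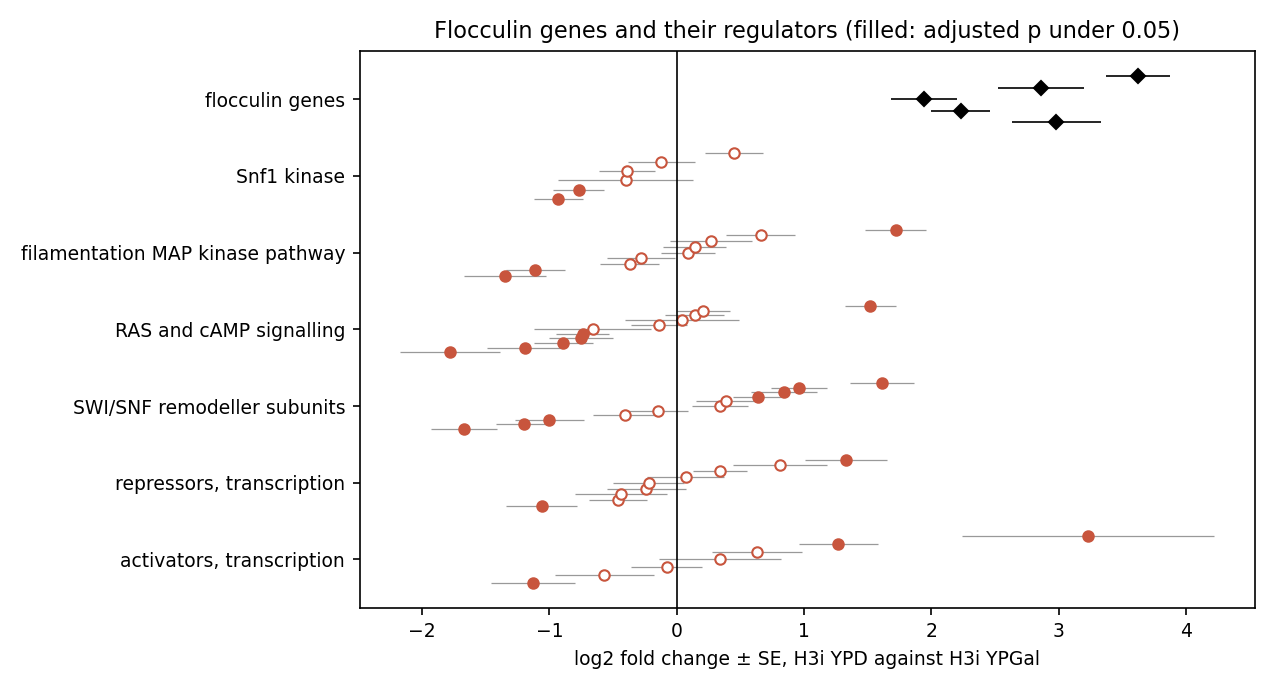
Log2 fold change of the 53 regulators in H3i, YPD against YPGal, in replicates 1 and 3, grouped by role; filled points passed the adjusted p threshold of 0.05. Called genes lie on both sides of 0 in 5 of the 6 groups, with 9 higher and 14 lower in all.

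Against WT in YPD, 10 of the 53 regulators were called higher and 13 lower, beside 26.0% and 23.7% of all genes, with a median of −0.23. Large differences were those of STE11 at 2.32 ± 0.24 (SE, adjusted p = 0.000818), RAS1 at −1.99 ± 0.40 (0.00506) and CYR1 at 1.77 ± 0.20 (0.000836). MSS11 was again higher, at 1.49 ± 0.32 (adjusted p = 0.00659), and STE12, the transcription factor of the mating and filamentation pathways, was lower, at −1.04 ± 0.28 (0.0168). The pair of Ste12 inhibitors went opposite ways, with DIG1 at −1.19 ± 0.31 (adjusted p = 0.0157) and DIG2 at 1.51 ± 0.33 (0.00723). Of those 7, the STE11, RAS1 and CYR1 calls held whichever library was left out.

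The interaction was called for 10 of the 53 regulators, 5 in each direction, against 13.1% of all genes higher and 14.5% lower. MSS11 (1.45 ± 0.44, adjusted p = 0.0444), SNF5 (1.87 ± 0.35, 0.0106), SWI3 (0.95 ± 0.28, 0.0422), CYR1 (1.75 ± 0.28, 0.00845) and STE11 (2.22 ± 0.34, 0.00798) had the positive values. SNF11 (−1.41 ± 0.36, adjusted p = 0.0251), ARP9 (−1.47 ± 0.31, 0.0138), RAS1 (−2.57 ± 0.55, 0.0147), CDC42 (−1.42 ± 0.33, 0.0183) and SNF4 (−1.20 ± 0.27, 0.0177) had the negative ones. CYR1 and STE11 were the regulators whose interaction call held in all 8 leave-outs.

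A pair of noncoding RNAs from the region upstream of FLO11 are known to switch the gene: ICR1, whose transcription towards FLO11 represses it, and PWR1, read from the opposite strand. ICR1 was not called in H3i YPD against YPGal, at 1.09 ± 0.47 (SE, adjusted p = 0.0926), and was higher in H3i than in WT in YPD, at 1.63 ± 0.48 (adjusted p = 0.024), a call lost without any of 5 of the 8 libraries. PWR1 had 0 counts in all 12 libraries. It lies within ICR1 on the other strand, and since it is not stated whether counting used strand, the counts given for ICR1 may include reads of either RNA. Reads that match both may also have been given to neither, so the 0 counts of PWR1 cannot show whether it was transcribed.

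The genes around the flocculins were examined for how far the rise reached along the chromosome. Of 49 annotated neighbours, up to 5 on each side of each member, 41 were tested, and 15 (36.6%) were called higher and 4 lower (9.76%) in H3i YPD against YPGal, with a median of 0.89. Beside this, 21.4% of all genes were called higher and 22.2% lower, and 31.7% of the genes at the members' distances from a chromosome end were called higher, a share near that of the neighbours. Towards the chromosome end 11 of 18 tested neighbours were called higher and 0 lower, and on the inner side 4 of 23 were higher and 4 lower, a split made after the values were seen and not tested. NFT1, GEX2, YHR210C and CRG1 remained called higher whichever library was left out, and the other 11 calls were each lost without at least 1 library. Against WT in YPD 18 neighbours (43.9%) were higher and 3 lower, with a median of 1.58, beside 26.0% of all genes and 37.8% of those at the members' distances called higher. Over all 12 libraries 0 neighbours were called.

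Beside FLO10, all 4 tested genes between it and the chromosome end rose, among them the nearest, NFT1, a predicted transporter of the ABC family, at 2.88 ± 0.31 (SE, adjusted p = 0.00159), and GEX2, a glutathione exchanger, at 2.65 ± 0.35 (0.00224). On the inner side SIR1, a silencing factor of the mating-type loci, was at 1.09 ± 0.36 (adjusted p = 0.0417), a call lost without any of 6 of the 8 libraries, and the next gene inwards, SKG1, was at −0.60 ± 0.20 (0.0437), also lost without any of 6.

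Beside FLO9, 4 of 5 genes towards the end rose, from YAL065C at 2.77 ± 0.65 (adjusted p = 0.0115) to YAL064W at 5.20 ± 1.03 (0.00799), and the nearest of them, YAL063C-A, was at 3.19 ± 0.84 (0.0182). YAL065C is the flocculin-like fragment given above, so its value is the same and not a further one. How reads divide between it and the flocculin genes was not tested. On the inner side GDH3, a glutamate dehydrogenase, was not called, at 1.24 ± 0.61 (adjusted p = 0.133), and BDH1, a butanediol dehydrogenase, was lower, at −2.05 ± 0.53 (0.0164), a call lost without any of 3 of the 4 H3i libraries. Beside FLO1 the inner neighbour SWH1, an oxysterol-binding protein homologue, was not called, at 0.64 ± 0.36 (adjusted p = 0.184), and 3 of 4 tested genes towards the end rose, PHO11, an acid phosphatase, at 2.98 ± 0.66 (0.00939) and YAR068W at 3.35 ± 0.69 (0.00713) among them. PHO11, YAR066W and YAR068W belong to families with near copies elsewhere, so their counts share the uncertainty of FLO1.

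FLO5 and FLO11 differed in their surroundings. Next to FLO5 the inner neighbours YHR210C, at 4.20 ± 0.75 (adjusted p = 0.00452), and CRG1, a methyltransferase, at 1.81 ± 0.30 (0.00371), rose, and neither of the 2 tested genes towards the end was called. Around FLO11, the member with the largest rise, 0 of 7 tested neighbours were called higher and YIR016W was lower, at −1.67 ± 0.35 (adjusted p = 0.00758, and 0.0765 without H3i YPGal replicate 3). The median of the 7 was −0.51. Its nearest neighbours were YIR018C-A, at 0.42 ± 0.55 (adjusted p = 0.565), and ICR1, given above.

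**Figure D4:**
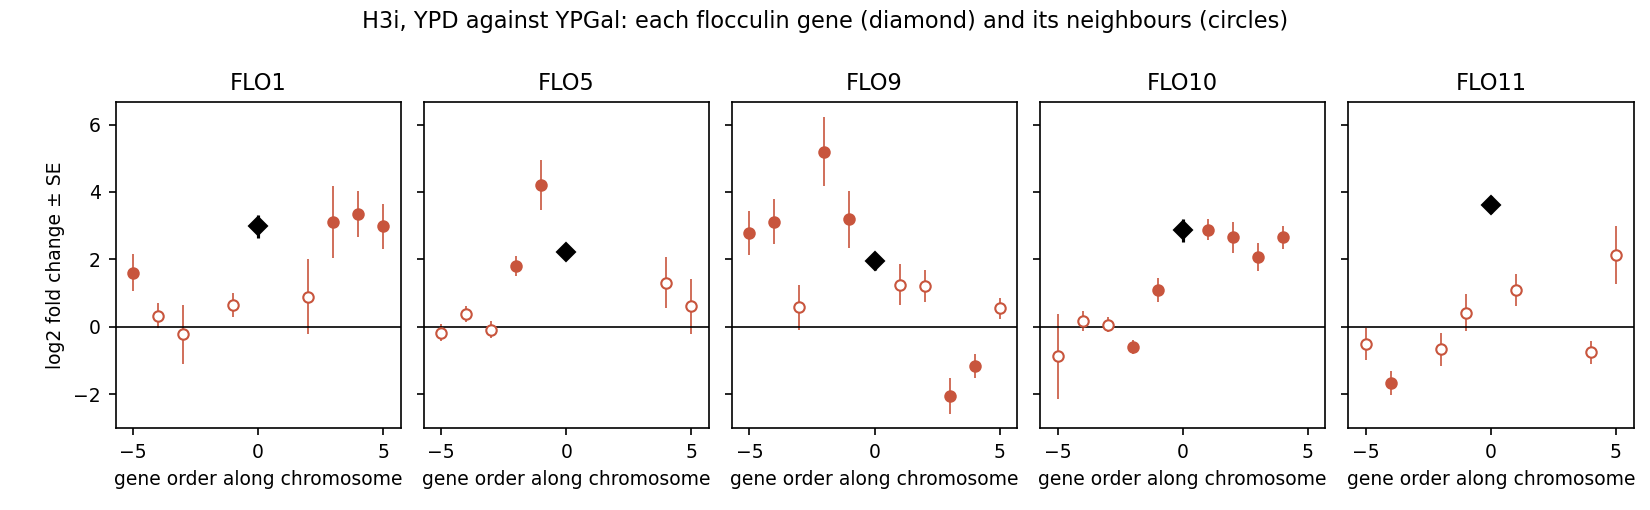
Log2 fold change in H3i, YPD against YPGal, in replicates 1 and 3, of the annotated genes up to 5 places to either side of each flocculin gene, in order along the chromosome; filled points passed the adjusted p threshold of 0.05. The chromosome end is to the left for FLO9 and to the right for the others, and for FLO10 all 4 tested genes on that side are filled whereas none of the 7 tested neighbours of FLO11 is filled above 0.

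The sequence before the coding start was examined for short motifs. A stretch of 60 bases shortly before the start codon is shown for the 5 members because 4 of them carry the TATA box TATAAA there at much the same place, and capitals mark it. They were read 5′ to 3′ on the strand of the gene from the RefSeq R64 genome, at chrI:203273-203332 (FLO1), chrVIII:525262-525321 (FLO5), chrI:28039-28098 (FLO9), chrXI:646226-646285 (FLO10) and chrIX:393746-393805 (FLO11).
FLO1: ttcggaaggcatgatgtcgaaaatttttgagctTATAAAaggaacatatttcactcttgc
FLO5: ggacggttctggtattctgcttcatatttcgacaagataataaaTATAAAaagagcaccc
FLO9: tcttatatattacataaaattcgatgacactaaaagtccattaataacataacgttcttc
FLO10: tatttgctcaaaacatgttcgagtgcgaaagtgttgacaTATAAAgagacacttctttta
FLO11: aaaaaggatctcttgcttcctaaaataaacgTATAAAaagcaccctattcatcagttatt

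The first base of the box lay 97 (FLO1), 86 (FLO5), 91 (FLO10) and 99 (FLO11) bases before the start codon. Within 500 bases upstream, on either strand, TATAAA occurred in 4 of 5 members and in 60.6% of 6019 coding genes. On the coding strand at 86 to 99 bases before the start, a range taken from the members themselves, it occurred in 2.56% of them. The letters were not found in this window of FLO9. CATTCC, the core of the Tec1 site, occurred upstream of FLO9 and FLO11 and of 17.8% of all genes. The motifs TGAAACA (Ste12, 12% of all genes), CCCCT (Nrg1, 34.0%) and the consensus of Rap1 (2.21%) were not among the 500 bases of any member. No match overlapped another, and a match describes letters and not binding.

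The 5 members had like profiles over the 8 libraries, with Pearson's r of log2 CPM from 0.92 to 0.987 between pairs, values that share the step between H3i YPD and the other groups. The profiles most like FLO1 were those of ECM5 (r = 0.997), PPZ2 (0.995) and HUL4 (0.994). Those most like FLO5 were tI(UAU)D (0.997), YHL030W-A (0.996) and YGL218W (0.995), and those most like FLO9 were NTG2 (0.998), DNL4 (0.997) and SPR28 (0.996). FLO10 was most like ATG13 (0.995), YLR466C-B (0.992) and UBR1 (0.992), and FLO11 most like SYT1 (0.995), YKR012C (0.994) and MIP6 (0.994). Such likeness was common: 13.2% to 16% of the genes tested had r of 0.9 or more with a given member over these 8 libraries.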

How the data were processed

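Poly(A) RNA-seq counts of 12 libraries were analysed. The authors deposited raw counts per gene and library. The sacCer3 build and the tools HISAT2, SAMtools, Picard, FastQC and DESeq2 are named in the submitters' processing notes. No read length, counting tool or strand setting is stated in the labels or notes. Per the labels' protocols replicates 1 and 2 shared extraction and library kits and replicate 3 had others. The 5 entries that name no gene held 27.5% to 38.6% (replicate 1), 66.3% to 74.5% (replicate 2) and 22.0% to 33.7% (replicate 3) of the counts and were left out of gene totals.

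Counts were fitted with edgeR 4.0.16 in R 4.3.3 (quasi-likelihood, TMM, filterByExpr) to replicates 1 and 3 of the 4 groups, with a kit term that equals a replicate block (3 residual degrees of freedom, biological coefficient of variation 0.273). The fit of 12 libraries had 7 degrees of freedom and a coefficient of 1.13. Calls are at a p under 0.05 after Benjamini-Hochberg adjustment over all genes tested. The error is the log2 fold change divided by the square root of F. DESeq2 1.42.0 was an alternative. The fit was also run on simulated counts with less spread than these data and no kit effect. That run cannot show how often the fit errs on these data.

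Libraries of the same replicate number were treated as paired in the main fit. Per the labels the kits set replicate 3 apart, but not replicates 1 and 2 from each other. All 18 same-numbered pairs correlated, at r = 0.343 to 0.799 over 5842 genes. These pairs include replicate 2, in which many genes were lost in every group, and the part of this loss was not tested. The p-values measure the spread left between replicates 1 and 3, which also differ in kits. In WT these replicates differ in strain markers and mating-type genes as well, whereas in H3i the same strain markers are at 0. The block takes out only what the groups have in common. A difference limited to WT therefore stays in the spread behind the p-values. Sequences, positions and motifs come from the RefSeq R64 genome, read with Biopython 1.88. The members, gene lists and tests were chosen with earlier results of these data known. Named genes are the members, up to 4 called genes with the largest change per list and comparison, the nearest flanking genes, and the 3 genes most like each member. The values of 1 regulator are not reported here. Further flanking genes (GEX2, SKG1, BDH1, PHO11, YAR066W, YAR068W, YAL064W, CRG1, YIR016W), SWI3 and the uncalled TUP1, CYC8, AGA2 and SAG1 were named after their values were seen.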

Additional observations from a re-analysis of the deposited data

Results flagged for a closer look

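The response to glucose differed between the strains for all 5 flocculin genes by the interaction test in edgeR. The response of H3i minus that of WT was 4.21 for FLO1, 2.03 for FLO5, 2.52 for FLO9, 3.04 for FLO10 and 4.26 for FLO11 on the log2 scale.

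The entries for reads that aligned to more than 1 place, which the tables list apart from the genes, stood above the WT control libraries in H3i YPD. They held 23.5%, 18.5% and 21.5% of all entries in replicates 1, 2 and 3. FLO1, FLO5 and FLO9 are genes with such sequence.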

How the results depend on the processing

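All 5 flocculin calls in each comparison with H3i YPD stood under DESeq2, library totals, no low-count filter, only the groups compared, and without both WT libraries of replicate 3, as far as each applies. Scaling by library totals moved the median of all genes by 0.39 (H3i, YPD against YPGal), 0.60 (H3i against WT in YPD), 0.56 (interaction) and −0.16 (WT), and the share of calls that were higher from 49.2% to 69.7%, 52.3% to 77.3%, 47.6% to 76.2% and 12.2% to 6.82%. Flocculin log2 fold changes in H3i were then 2.34 to 4.01. Where a value below differs from the report, the cause was not tested.

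In the 12-library kit-term fit 4 genes were called in WT. In H3i it called 4 genes, 0 flocculin genes, 0 regulators and 0 raised neighbours, in H3i against WT in YPD 6, 0, 0 and 0, and in the interaction 1, 0, 0 and 0. With a replicate block on 12 libraries the counts were 11 genes in WT, and in the same 3 comparisons 503, 3, 1 and 3, then 716, 3, 3 and 6, then 208, 2, 1 and 0. With no replicate block on 8 libraries they were 5 genes in WT, then in H3i 1183 genes, 7 regulators and 7 neighbours, between strains in YPD 1579, 9 and 11, and in the interaction 25 genes, 1 flocculin gene, 0 regulators and 0 neighbours.

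In WT, DESeq2 called 657 genes and 1 flocculin gene, the fit of only the groups compared 444 genes, and the fit without both WT libraries of replicate 3 493 genes and 1 flocculin gene. In that last fit 16 regulators had a called interaction. Between strains in YPGal 12 genes were called by DESeq2, 3 without the low-count filter, 2 with only the groups compared and 2 without both WT libraries of replicate 3.

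With 1 library left out at a time, 0 flocculin genes were called in WT and in YPGal and 5 in each other comparison. Genes called ranged from 4 to 381 (WT), 1201 to 2955 (H3i), 0 to 5 (YPGal), 1917 to 3358 (strains in YPD) and 524 to 1591 (interaction). In H3i, between strains in YPD and in the interaction, regulators called ranged from 9 to 23, 9 to 25 and 2 to 12, and raised neighbours from 4 to 15, 10 to 21 and 3 to 9. Of 44 other named genes called in H3i 10 remained called in all 8 leave-outs, of 44 between strains in YPD 18, and of 21 in the interaction 6.

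Some signs turned. FLO10 in WT was 0.49 without both WT libraries of replicate 3 and ranged from −0.58 to 0.42 with 1 library left out. In H3i against WT in YPGal, leaving 1 out gave −0.38 to 0.46 (FLO1), −0.08 to 0.26 (FLO5), −0.18 to 0.08 (FLO9) and −0.35 to 0.65 (FLO10). There FLO1, FLO5 and FLO11 were −0.06, −0.51 and 0.12 in the 12-library fit and −0.06, −0.43 and 1.67 with its replicate block, and without both WT libraries of replicate 3 FLO1 was −0.28 and FLO5 −0.04. Of called regulators and neighbours, SKG1 (1.18) and SFL1 (0.64) in H3i turned with the 12-library block. Between strains in YPD SNF1 (0.63), SNF12 (−0.04) and TPK2 (−0.20) turned in the 12-library fit, SNF1 (0.55), SHO1 (0.78), SKG1 (1.45), SNF12 (−1.21) and TPK2 (−0.05) with its block, and SNF1 (0.04) and SKG1 (0.03) under library totals. At the depth of replicate 1 the FLO levels outside H3i YPD rest on few counts.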
